A study of Mus musculus with 6 samples.

Results

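A set of 40 genes of the blood and lymphatic vessel wall and of the signals that build it was followed in the ovary. The set was taken from the deposited expression table by gene symbol, 39 of the 40 directly and the receptor gene Eltd1 under its present symbol Adgrl4, which RefSeq gives as a synonym, out of 18280 genes in all. The list holds markers of endothelial cells, the VEGF and angiopoietin ligands and their receptors, the vascular Notch and ephrin genes, endothelial transcription factors and genes of lymphatic vessels. Ovaries came from 3 mice with the Dennd1a transgene (TG, genotype Dennd1aTG in the labels) and 3 wild-type mice (WT). Every mouse, in both groups, had been given PMSG, a gonadotropin that drives follicles to grow, 44 h earlier. The series text describes the transgenic mice as poorly fertile and insensitive to FSH. The promoter of the transgene, the mouse strain and the age of the animals are not given in the sources used here. The RNA is that of the whole organ, so for each gene below, fewer vessel cells and less transcript per cell cannot be told apart.

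Vessels of the ovary grow and regress with each follicle, and a growing follicle gains a capillary bed in its theca layer while the granulosa layer stays free of vessels until ovulation. VEGF-A, released by granulosa and theca cells, binds the receptors encoded by Kdr and Flt1 on endothelial cells, with the neuropilins as co-receptors, and starts sprouting. The angiopoietins then stabilise or loosen the new vessel through the receptor TIE2, encoded by Tek, and Notch signalling through Dll4 limits how many cells lead a sprout.

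Library totals ran from 17075484 to 18516171 estimated counts, of which the 40 genes held between 34234 and 49611 counts, or 0.195% to 0.269% of a library. Dennd1a itself measured 570 to 588 CPM (counts-per-million, scaled to the effective library size) in the TG libraries and 39.5 to 49.3 CPM in the WT libraries, so each library carried the level its label calls for. Fat transcripts stood apart in TG replicate 2, where the summed FPKM of 7 adipocyte markers was 277, against 15.8 to 41.4 in the other libraries. WT replicate 3 had the highest sums of oviduct markers (33.4 FPKM, elsewhere 14.4 to 19.9) and of pericyte and smooth muscle markers (922 FPKM, elsewhere 595 to 746). The counts that lead the comparison are also given with both of these libraries left out.

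All 40 genes passed the filter on low counts, and the markers that define endothelium (Pecam1, Cdh5, Tie1 and Tek among them) were present in every library. FPKM, which scales a count by transcript length and library size, allows levels of different genes to be compared, and the levels in this paragraph are means of the 6 libraries on that scale. Cd34, a sialomucin of capillary endothelium and of some stromal cells, was highest at 94.5 FPKM, a level above that of 93.2% of the 14124 genes tested. Emcn, the mucin of capillaries and veins, followed at 66.2 FPKM, Cdh5, the cadherin of endothelial junctions, at 59.4 FPKM and the transcription factor gene Sox18 at 57.9 FPKM. Single libraries of Cdh5 ran from 44.7 to 69.0 FPKM and those of Sox18 from 45.3 to 67.1 FPKM, so the order of these neighbours lies within their spread. In all, 21 of the 40 genes lay above the median of all tested genes, 10.4 FPKM. Lowest were Vwf, the clotting factor carrier of large vessels, at 1.18 FPKM, the VEGF-family ligand Pgf at 0.972 FPKM and Prox1, which specifies lymphatic identity, at 0.713 FPKM. Pgf rested on 19 to 30 counts per library and Prox1 on 76 to 114.

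**Figure D1:**
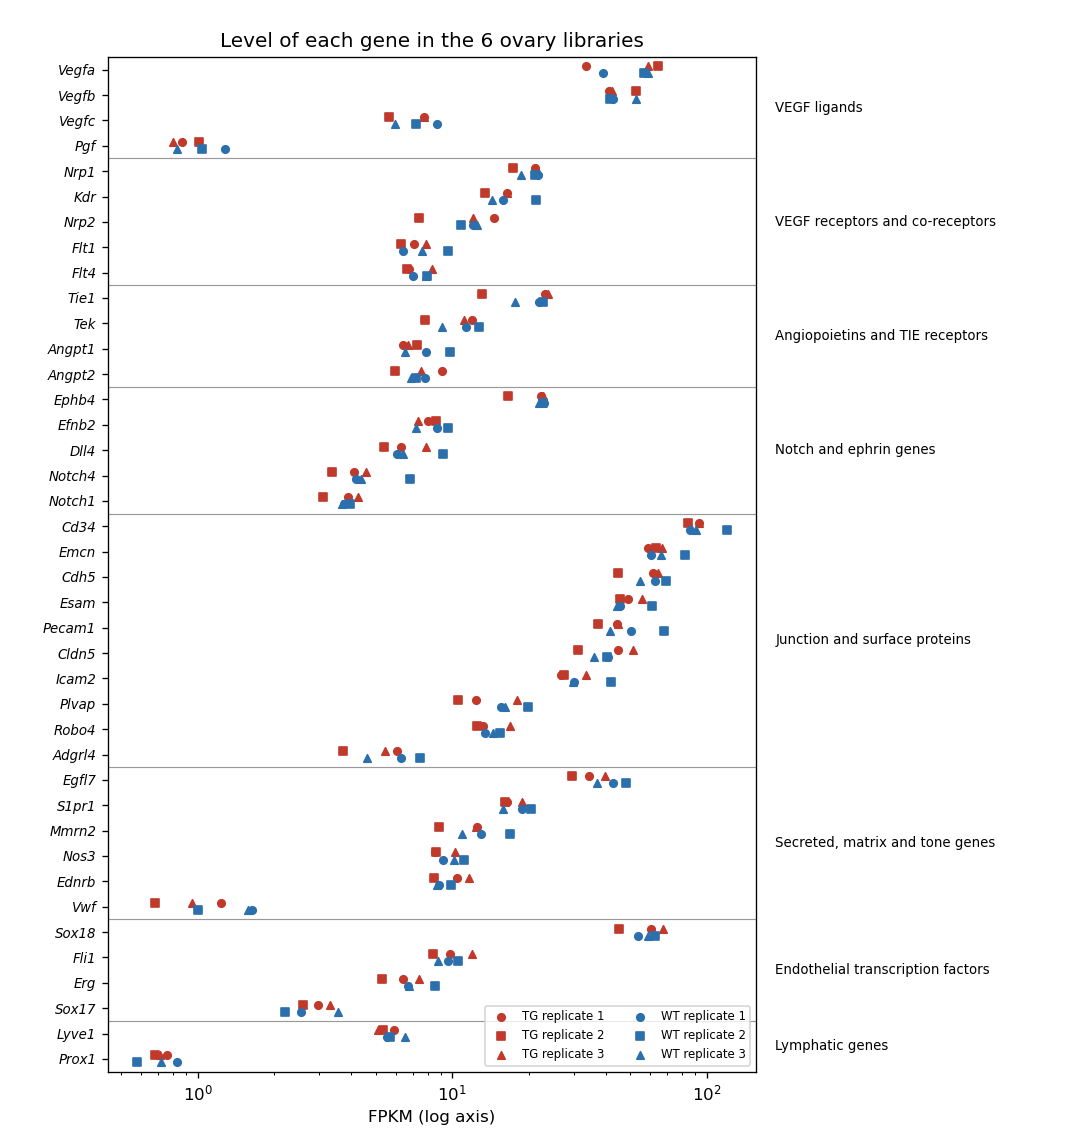
Level of each of the 40 genes in the 6 libraries, grouped by role; the horizontal axis is FPKM on a log scale, each point is 1 library, red for TG and blue for WT, with the point shape giving the replicate number. Levels span from below 1 FPKM for Prox1 to a mean of 94.5 FPKM for Cd34, and red and blue points overlap for every gene.

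The promoters of 4 genes are shown as examples of how genes varied between libraries, as described further on. Egfl7, Tie1 and Cd34 were lowest in TG replicate 2, while Vegfa was highest there. For Cd34 that library lay level with WT replicate 1 (both 201 CPM). Each run holds the 250 bases before the annotated start, read 5′ to 3′ on the strand of the gene, from RefSeq on GRCm38.p6, the assembly to which mm10 corresponds. Capitals mark CAGGAA or CCGGAA on either strand, short cores that factors of the ETS family, such as the products of Erg and Fli1, can bind.
Egfl7, chr2:26580833-26581082, plus strand: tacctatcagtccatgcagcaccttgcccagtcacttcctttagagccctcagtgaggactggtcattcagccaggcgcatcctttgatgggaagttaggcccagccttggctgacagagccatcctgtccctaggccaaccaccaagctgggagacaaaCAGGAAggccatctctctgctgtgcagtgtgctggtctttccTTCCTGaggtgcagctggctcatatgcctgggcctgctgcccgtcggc
Tie1, chr4:118489850-118490099, minus strand: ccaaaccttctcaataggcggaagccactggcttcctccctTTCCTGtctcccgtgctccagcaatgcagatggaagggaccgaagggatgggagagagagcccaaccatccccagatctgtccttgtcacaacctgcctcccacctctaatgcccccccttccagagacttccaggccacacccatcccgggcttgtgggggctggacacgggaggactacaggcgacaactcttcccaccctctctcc
Cd34, chr1:194938571-194938820, plus strand: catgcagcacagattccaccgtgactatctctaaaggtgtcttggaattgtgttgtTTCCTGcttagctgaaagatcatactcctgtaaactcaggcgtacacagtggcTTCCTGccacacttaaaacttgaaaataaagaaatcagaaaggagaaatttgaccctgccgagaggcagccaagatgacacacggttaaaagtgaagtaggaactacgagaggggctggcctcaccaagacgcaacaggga
Vegfa, chr17:46032378-46032627, minus strand: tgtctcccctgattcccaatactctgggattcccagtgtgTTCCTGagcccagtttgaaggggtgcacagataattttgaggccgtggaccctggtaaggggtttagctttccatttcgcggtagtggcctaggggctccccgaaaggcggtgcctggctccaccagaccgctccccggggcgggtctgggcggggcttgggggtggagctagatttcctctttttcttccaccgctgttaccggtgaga
These windows of Egfl7 and Cd34 held 2 such cores each and those of Tie1 and Vegfa 1 each. They lie before the outermost start of each gene. Egfl7 has 2 further windows at inner starts, with 1 and 0 cores, and Vegfa has 1, with 0 cores. The outermost windows of Cldn5, Dll4 and Ephb4, genes also lowest in TG replicate 2, held 0 cores. RefSeq windows were found for 25 of the 40 genes, 32 windows in all, and 14 of these (43.8%) held a core, compared with 35.1% of the 32851 windows of all genes. ATTGT, a core bound by SOX factors, was in 6 of the 32 windows (18.8%, all genes 27.7%), TGGGAA, the RBPJ core of Notch signalling, in 8 (25.0%, all genes 21.6%), and the hypoxia response core, ACGTG or GCGTG, in 13 (40.6%, all genes 38.6%). Both strands were searched for each motif and matches of different motifs may overlap. These matches describe the letters and do not show binding.

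The comparison of the genotypes asks whether the transgene goes with a change in the vascular transcripts of the stimulated ovary. No gene of the 40 differed between TG and WT at an adjusted p under 0.05 in edgeR, where every adjusted p was 0.9997 or higher. Over all 14124 genes tested, 1.05% were called, 1.02% lower and 0.0354% higher in TG. Without adjustment, 2 of the 40 (5.0%) had a p under 0.05 in edgeR, both with lower values in TG, while 4.08% of all genes did, and 3.14% of all genes did so with lower values in TG. DESeq2 and limma-voom also called 0 of the 40, with 3 and 2 genes at an unadjusted p under 0.05. DESeq2 called 1.44% of all genes (3.58% without adjustment) and limma-voom 0.977% (4.1% without adjustment). TG and WT libraries overlapped for each of the 40 genes, whereas they did not overlap for 8.25% of all genes tested.

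The 95% intervals bound the size of a difference gene by gene, and they were not adjusted for the number of genes. Log2 fold changes of TG over WT ran from -0.58 to 0.14, with standard errors from 0.10 to 0.28. For 39 of the 40 genes the 95% interval lay within a 2-fold change in either direction, Vwf being the exception, and for 31 it lay within a 1.5-fold change, compared with 74.5% of all genes tested. The median log2 fold change was -0.13 for the 40 genes and 0.00 for all genes. Most of the 40 leaned the same way: 34 had a log2 fold change below 0, as did 49.3% of all genes, and this count was 32 with upper-quartile factors and 33 with no composition factors. It depended more on 2 libraries, being 24 of 40 without TG replicate 2 and 26 of 40 without WT replicate 2. Leaving out both the fat-rich TG replicate 2 and WT replicate 3, it was 29 of 40, the median was -0.09 and 0 genes were called.

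**Figure D2:**
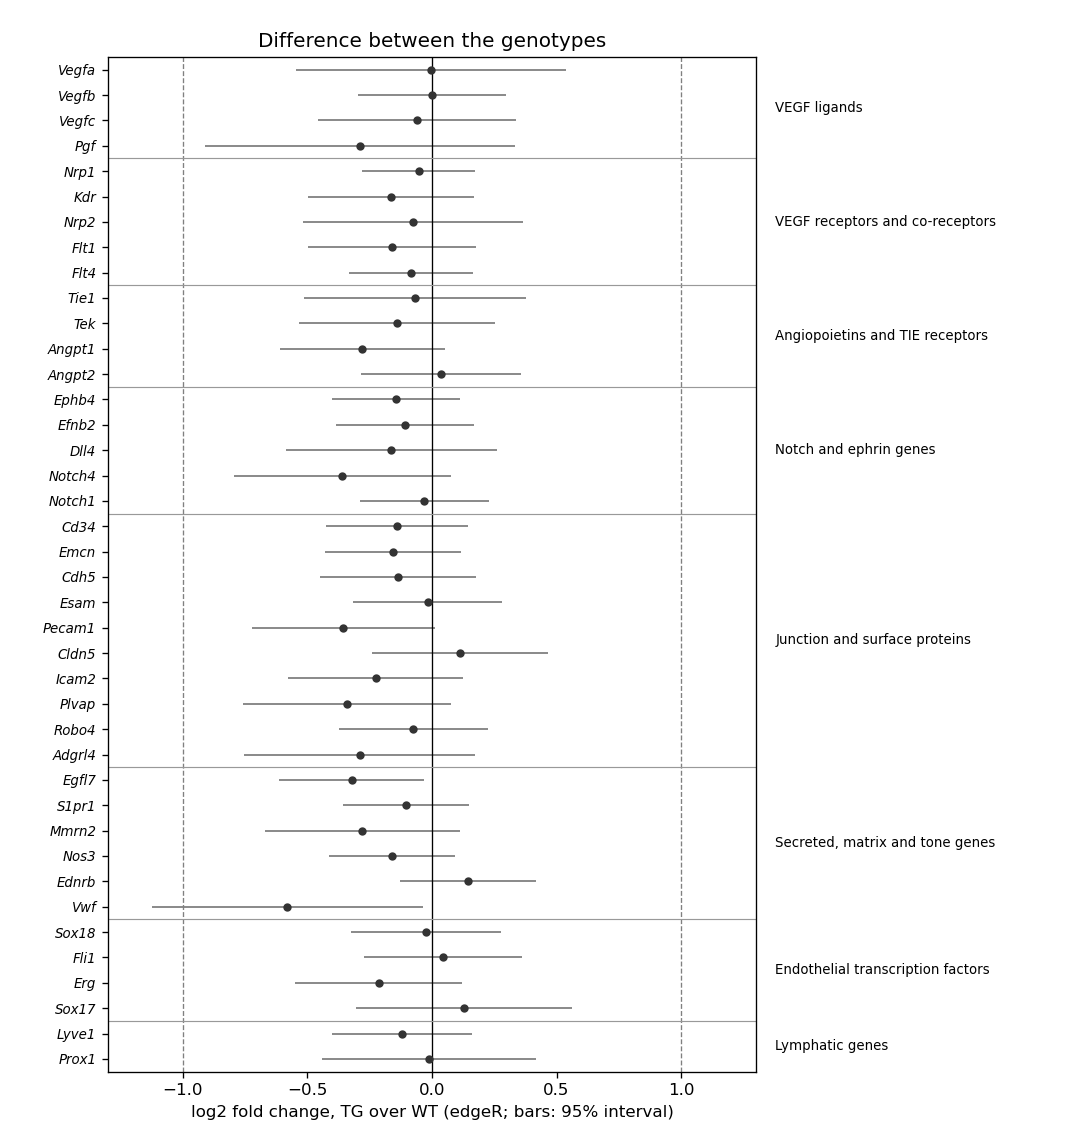
Log2 fold change of TG over WT for the 40 genes in edgeR, grouped by role; points are estimates, bars 95% intervals, and dashed lines mark a 2-fold change. Every interval but those of Egfl7 and Vwf includes 0, and only that of Vwf reaches past a 2-fold change.

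None of the 4 VEGF-family ligand genes passed the test, and their main member varied widely between libraries. Vegfa (Entrez gene 22339, chr17:46016993-46032377), the principal ligand of vessel growth, measured 98.9, 195 and 176 CPM in the TG libraries, in order of their replicate numbers, and 117, 176 and 177 CPM in the WT libraries; later genes follow this order. In both genotypes replicate 1 was low and the other libraries lay close together, so that the groups covered the same range. The means of Vegfa were 156 ± 50.6 CPM in TG against 157 ± 34.6 CPM in WT (SD, n = 3 each), with an estimated log2 fold change of -0.00 (SE 0.24, 95% bounds -0.54 and 0.54). Vegfb, a ligand of Flt1, measured 48.7 ± 7.63 CPM in TG against 48.7 ± 6.38 CPM in WT (SD, n = 3 each), with a log2 fold change of 0.00 (SE 0.13). Pgf, the other ligand specific to Flt1, had the smallest p of the group, with 1.17, 1.26 and 1.11 CPM in TG against 1.62, 1.59 and 1.12 CPM in WT. The log2 fold change of Pgf was -0.29 (SE 0.28), and at its depth the 95% interval reached from -0.91 to 0.33. Vegfc, which drives lymphatic growth through Flt4, had -0.06 (SE 0.18).

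All 5 receptors and co-receptors of VEGF had log2 fold changes near 0, from -0.16 to -0.05, and their 95% intervals together ran from -0.52 to 0.37. Kdr (chr5:75932827-75979072), the main signalling receptor, measured 85.7, 71.9 and 86.2 CPM in TG against 83.7, 114 and 75.9 CPM in WT. WT replicate 2 was the highest library and TG replicate 2 the lowest, with the other 4 between them. Its log2 fold change was -0.16 (SE 0.15). Flt1, which binds VEGF-A tightly and acts largely as a decoy, had 42.1, 38.8 and 47.5 CPM in TG against 38.7, 58.9 and 45.8 CPM in WT, an estimate of -0.16 (SE 0.15) on the log2 scale. WT replicate 2 was the highest library again, while WT replicate 1 and TG replicate 2 were the lowest and lay level. Nrp1, the co-receptor with the highest FPKM of this group, had 117, 98.8 and 120 CPM in TG against 122, 121 and 105 CPM in WT. Its log2 fold change of -0.05 had the smallest standard error of the 40 genes (0.10), and the 95% interval was -0.28 to 0.17. Nrp2, a co-receptor on veins and lymphatics, ranged from 46.2 CPM in TG replicate 2 to 88.5 CPM in TG replicate 1, so that the spread within TG exceeded that between the groups. Flt4, the receptor of VEGF-C, had a log2 fold change of -0.08 (SE 0.11).

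In the angiopoietin system, the stabilising ligand Angpt1 (chr15:42424667-42676977) had the smallest p of its group. It measured 24.3, 27.9 and 26.4 CPM in TG against 30.7, 39.0 and 25.6 CPM in WT, and WT replicate 3 lay among the TG libraries. Its log2 fold change of -0.28 (SE 0.15, 95% interval -0.61 to 0.05) had an unadjusted p of 0.0887 in edgeR. Angpt2, the antagonist that loosens vessels before they sprout or regress, had 30.5, 20.4 and 25.4 CPM in TG against 26.4, 24.6 and 23.5 CPM in WT (log2 fold change 0.03, SE 0.14). Tie1 (chr4:118471191-118489849), the partner of TIE2, measured 84.6, 49.2 and 87.5 CPM in TG against 81.0, 85.0 and 66.0 CPM in WT. TG replicate 2 was lowest and WT replicate 3 next lowest, while the remaining TG libraries lay with the highest WT libraries. The log2 fold change of Tie1 was -0.07 (SE 0.20). The gene Tek likewise had its lowest value, 32.2 CPM, in TG replicate 2, and a log2 fold change of -0.14 (SE 0.17).

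The 5 Notch and ephrin genes all had log2 fold changes below 0, from -0.36 to -0.03, and 0 had an unadjusted p under 0.05. Notch4 (chr17:34564286-34588543), a Notch receptor largely restricted to endothelium, had 26.1, 21.8 and 29.3 CPM in TG against 26.7, 44.2 and 28.2 CPM in WT. Here WT replicate 2 alone was high, and the other 5 libraries lay together. Its log2 fold change was -0.36 (SE 0.19), and without WT replicate 2 it was -0.09. Dll4, the tip-cell ligand, had -0.16 (SE 0.19) and Notch1 had -0.03 (SE 0.12). Ephb4, the venous receptor and the member of this group with the highest FPKM, measured 92.0, 70.0 and 93.9 CPM in TG against 95.5, 95.7 and 91.6 CPM in WT, with TG replicate 2 alone apart and a log2 fold change of -0.14 (SE 0.11). Efnb2, its arterial ligand, had a log2 fold change of -0.11 (SE 0.12).

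Among the 10 junction and surface proteins Pecam1 had the smallest p. Pecam1 (CD31, chr11:106654213-106715281) joins endothelial cells and is also carried by platelets and leukocytes. It measured 136, 115 and 138 CPM in TG against 156, 212 and 129 CPM in WT, so that WT replicate 3 lay within the TG range while WT replicate 2 was far above all others. The log2 fold change of Pecam1 was -0.36 (SE 0.16, 95% interval -0.72 to 0.01, unadjusted p = 0.0563 in edgeR). Cdh5, whose product is found in endothelial junctions, had 232, 172 and 244 CPM in TG against 237, 266 and 210 CPM in WT (log2 fold change -0.14, SE 0.14). Cd34 had 216, 201 and 218 CPM in TG against 201, 284 and 215 CPM in WT, and apart from WT replicate 2 the libraries lay close together, for a log2 fold change of -0.14 (SE 0.13). Plvap, the diaphragm protein of fenestrated capillaries, had -0.34 (SE 0.18), the orphan adhesion receptor gene Adgrl4 -0.29 (SE 0.21), Icam2 -0.22 (SE 0.16) and Emcn -0.16 (SE 0.12). Robo4, a guidance receptor that steadies vessels, had -0.08 (SE 0.13) and the junction protein gene Esam -0.02 (SE 0.13). Cldn5, the tight junction protein, was the only one of the 10 above 0, at 0.11 (SE 0.16), with 39.3 CPM in TG replicate 2 and between 45.2 and 63.9 CPM elsewhere.

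Secreted, matrix and vessel tone genes held both of the 40 with an unadjusted p under 0.05. Egfl7 (Entrez gene 353156, chr2:26581083-26592682) encodes a matrix protein that endothelial cells lay down around growing vessels. It measured 40.9, 35.8 and 47.5 CPM in TG against 51.4, 58.6 and 45.3 CPM in WT, and TG replicate 3 and WT replicate 3 crossed over. The means were 41.4 ± 5.89 and 51.8 ± 6.67 CPM (SD, n = 3 each), and the log2 fold change was -0.32 (SE 0.13, 95% interval -0.61 to -0.03, unadjusted p = 0.0329 and adjusted p = 0.9997 in edgeR). Vwf (Entrez gene 22371, chr6:125552948-125686679) measured 10.4, 5.92 and 8.11 CPM in TG against 14.1, 8.75 and 13.7 CPM in WT, with WT replicate 2 below TG replicate 1. The estimate for Vwf was a log2 fold change of -0.58 (SE 0.24, 95% bounds -1.13 and -0.04, unadjusted p = 0.0386 and adjusted p = 0.9997 in edgeR), and with the replicate number as a block the adjusted p was 0.178, the lowest of any of the 40 genes in any alternative. Vwf rested on 103 to 262 counts per library. Mmrn2, a matrix ligand of endothelial receptors, had a log2 fold change of -0.28 (SE 0.17), Nos3, which makes nitric oxide in endothelium, -0.16 (SE 0.11), and the sphingosine-1-phosphate receptor gene S1pr1 -0.11 (SE 0.11). Ednrb, an endothelin receptor, had the highest of the 40, 0.14 (SE 0.12). Every library held a fractional count for Nos3, as did 3 libraries for the ligand gene Vegfc, so reads of both may be shared with another gene and their values are uncertain.

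Endothelial transcription factors lay on both sides of 0, Erg at -0.21 (SE 0.15) and Sox18 at -0.02 (SE 0.13) below it and Fli1 at 0.04 (SE 0.14) and Sox17 at 0.13 (SE 0.19) above it. Erg, an ETS factor that maintains endothelial identity, measured 19.0, 16.2 and 22.0 CPM in TG against 19.9, 26.0 and 20.4 CPM in WT. Sox18, which acts in vessel and lymphatic development, had 86.3, 66.5 and 96.9 CPM in TG against 77.3, 91.0 and 85.5 CPM in WT, and its highest and lowest libraries were both TG. Lyve1, a hyaluronan receptor of lymphatic vessels and of some macrophages, had 14.2, 13.2 and 12.4 CPM in TG against 13.4, 14.0 and 15.9 CPM in WT (log2 fold change -0.12, SE 0.12). Prox1 had 5.27, 4.94 and 5.25 CPM in TG against 6.14, 4.16 and 5.28 CPM in WT (log2 fold change -0.01, SE 0.19, 95% bounds -0.44 and 0.42). The groups overlapped for both lymphatic genes.

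Single libraries stood apart across many of the vascular genes at once. TG replicate 2 was the lowest of the 6 libraries for 25 of the 40 genes (62.5%), while it was lowest for 18.3% of all genes tested. WT replicate 2 was the highest for 21 of the 40 (52.5%), compared with 17.7% of all genes. Both held together for 13 genes: Pecam1, Cdh5, Egfl7, Tek, Kdr, Erg, Plvap, Cd34, Mmrn2, Dll4, Notch4, Ephb4 and Adgrl4. Such a pair of extremes was found in 2.8% of all genes. The 7 genes with neither were the VEGF-family ligand genes Vegfa, Vegfb and Pgf, the receptor gene Flt4, Sox17 and the lymphatic genes Lyve1 and Prox1. By role, TG replicate 2 was lowest for 7 of 10 junction and surface genes, 4 of 6 secreted and tone genes, 4 of 5 Notch and ephrin genes, 3 of 4 angiopoietin and TIE genes, 3 of 5 VEGF receptors, 3 of 4 transcription factors, 1 of 4 ligands (Vegfc) and 0 of 2 lymphatic genes. WT replicate 2 was highest for 8, 4, 4, 2, 2, 1, 0 and 0 genes of these groups, in the same order. Differences between the roles were not tested.

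**Figure D3:**
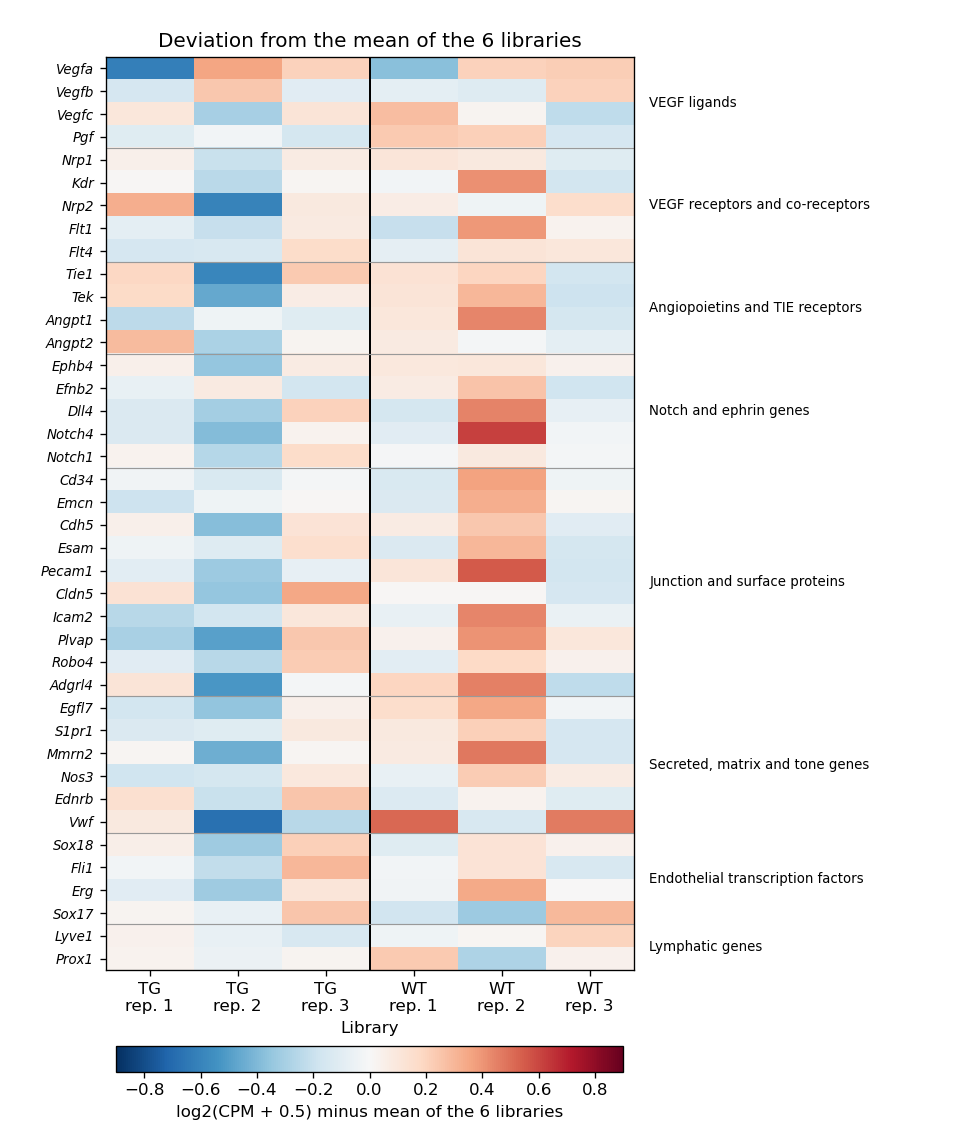
Deviation of each of the 40 genes in each library from its mean over the 6 libraries, in log2 of CPM plus 0.5; blue is below and red above the mean, rows are grouped by role, and the black line separates TG from WT. TG replicate 2 is mostly blue and WT replicate 2 mostly red, while the row of Vegfa is blue in replicate 1 of both genotypes.

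In each library the FPKM of 12 genes known mainly from endothelium was summed (Pecam1, Cdh5, Tie1, Tek, Egfl7, Esam, Cldn5, Icam2, Robo4, Mmrn2, Sox18 and Emcn). Such a sum is a level relative to the other transcripts of the library, not an amount per ovary. The sums were 441, 366 and 487 FPKM in TG replicates 1 to 3 and 446, 541 and 421 FPKM in WT replicates 1 to 3. TG replicate 3 lay above WT replicates 1 and 3, and the means, 431 ± 60.8 in TG and 469 ± 63.2 FPKM in WT (SD, n = 3 each), differed by less than the spread within either group. TG replicate 2, with the lowest sum, was the library with the fat transcripts named above, and the part of these in its low endothelial sum was not tested. Transcripts of red blood cells, which fill the vessels, followed the genotype instead: the summed FPKM of 6 erythrocyte markers was 451 to 519 in TG and 278 to 322 in WT, and edgeR called 3 of 5 tested genes higher in TG, Hba-a1 (log2 fold change 0.75, SE 0.09) and Hba-a2 (0.75, SE 0.10) having the smallest p. Reads of these near-identical globin genes may be split between them, and the part of blood content in the vascular values was not tested. Macrophage marker sums ran from 284 to 296 FPKM in TG and from 313 to 585 FPKM in WT over 13 markers. Of these markers edgeR called 0, 8 had an unadjusted p under 0.05, and all 13 had log2 fold changes below 0. Pecam1, Fli1 and Lyve1 are also expressed by macrophages or other leukocytes, and the part of these cells in their values was not tested. Of the 7 platelet markers 6 had too few counts to be tested, and the seventh, Pf4, measured 4.32 to 7.24 CPM. Sums of stroma markers (777 to 982 FPKM in TG, 709 to 1069 FPKM in WT) overlapped between the genotypes, as did granulosa markers (3595 to 4367 and 3421 to 4367 FPKM), theca markers (8618 to 9599 and 8519 to 10242 FPKM), lymphocyte markers (3.67 to 4.59 and 4.25 to 6.29 FPKM) and pericyte and smooth muscle markers (619 to 746 and 595 to 922 FPKM). Within the theca list Cyp17a1, which makes androgen precursors, had a log2 fold change of 0.73 (SE 0.16, unadjusted p = 0.00144, adjusted p = 0.115 in edgeR). Interferon-response genes, 15 of 15 called lower in TG, summed to 382 to 493 FPKM in TG and 1377 to 1873 FPKM in WT. WT replicate 2, with the highest endothelial sum, had the lowest interferon sum of the WT libraries. Among the TG libraries replicate 3 had the highest endothelial sum and replicate 1 the lowest interferon sum. A link between these sums was not tested.

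**Figure D4:**
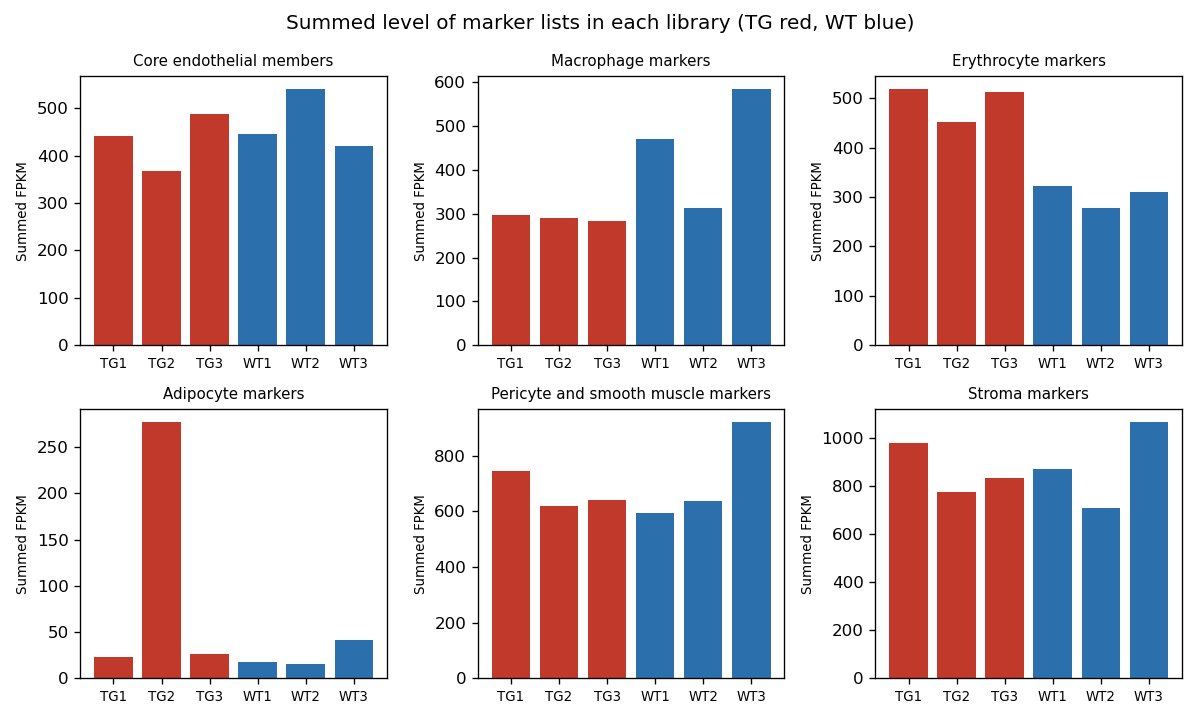
Summed FPKM of marker lists in each library, TG in red and WT in blue, with axes starting at 0. Endothelial sums overlap between the genotypes (366 to 487 FPKM in TG, 421 to 541 FPKM in WT), erythrocyte sums do not (451 to 519 and 278 to 322 FPKM), and the adipocyte sum of 277 FPKM stands alone in TG replicate 2.

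Ratios within a library set members against each other, and 5 were formed from FPKM. Angpt2 over Angpt1, the balance of the loosening against the stabilising ligand, was 1.42, 0.816 and 1.13 in TG and 0.992, 0.732 and 1.06 in WT. Its log2 difference of TG minus WT was 0.25, with p = 0.4 in a two-sided exact permutation test, and in both genotypes replicate 2 had the lowest ratio. Flt1 over Kdr, decoy against signalling receptor, was 0.459 ± 0.0262 in TG and 0.462 ± 0.0636 in WT (SD, n = 3 each), and the exact permutation p was 1.0. Vegfa over Kdr, ligand against receptor, was 2.03, 4.78 and 3.59 in TG and 2.46, 2.65 and 4.12 in WT (exact permutation p = 0.9). Pecam1 over Cdh5 was 0.750 ± 0.0742 in TG and 0.852 ± 0.117 in WT (SD, n = 3 each, exact permutation p = 0.3), and Lyve1 over Prox1 was 7.61 ± 0.357 in TG and 8.49 ± 1.63 in WT (exact permutation p = 0.5). Adjusted over the 5 ratios by Benjamini-Hochberg, the exact permutation p-values lay between 0.833 and 1.0. The smallest p that 3 animals against 3 allow is 0.1.

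Other genes of the same pathways, taken from 9 lists, were followed too, Ptprb being in 2 of them. Of 121 tested genes outside the 40, edgeR called 0, and 2 (1.65%) had an unadjusted p under 0.05, both semaphorin pathway genes with lower values in TG. These were Sema3f, a ligand that competes with VEGF at neuropilins, at a log2 fold change of -0.45 (SE 0.14, unadjusted p = 0.00937, adjusted p = 0.490 in edgeR), and its receptor subunit Plxna1 at -0.20 (SE 0.08, adjusted p = 0.9997). Sema3f measured 28.5, 26.2 and 32.5 CPM in TG against 38.2, 47.2 and 33.6 CPM in WT, with no overlap of the groups.

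By list, 0 of 12 VEGF and semaphorin genes were called in edgeR (median log2 fold change -0.03), 0 of 8 genes of the TIE pathway (median -0.08), 0 of 18 of the Notch pathway (median -0.03) and 0 of 9 of the ephrin system (median 0.02). The 35 further endothelial genes had a median of -0.05, with Esm1, a marker of tip cells, at -0.87 (SE 0.41) and Apln, a ligand made by sprouting endothelium, at 0.31 (SE 0.15) having the smallest p. Esm1 measured 4.87 CPM in WT replicate 2 and at most 1.88 CPM in the other libraries. TG replicate 2 was the lowest library for 16 of these 35 genes (45.7%, all genes 18.3%). WT replicate 2 was the highest for 20 (57.1%, all genes 17.7%). These libraries stood apart for the 40 as well. Over all 121 genes of the 9 lists, TG replicate 2 was lowest for 46 and WT replicate 2 highest for 34 (all genes 18.3% and 17.7%). The 35 endothelial genes gave 16 of these 46 and 20 of these 34, so most of the WT replicate 2 count came from that list. Genes of oxygen sensing (8 tested, median 0.03, smallest p for Egln2 at -0.17 and Epas1 at 0.11), inhibitors of angiogenesis (10 tested, median -0.07, Serpinf1 at -0.18 and Thbs2 at 0.11), further lymphatic genes (8 tested, median 0.02, Adamts3 at 0.56 and Nr2f2 at 0.13) and genes of endothelin, nitric oxide and S1P signalling (14 tested, median 0.04, Nostrin at -0.28 and S1pr2 at -0.15) had 0 called and 0 with an unadjusted p under 0.05 in edgeR. In the Notch list the smallest p belonged to Mib1 at 0.16 (SE 0.10) and Hes1 at -0.15 (SE 0.11), in the TIE list to Ptprb, the phosphatase that restrains TIE2, at -0.20 (SE 0.13) and Tnip2 at -0.12 (SE 0.14), and in the ephrin list to Efna1 at -0.15 (SE 0.15) and Ephb3 at 0.18 (SE 0.20).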

How the data were processed

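Ovarian RNA of 6 mice was sequenced on a BGISEQ-500, per the labels' protocols. Tools named in the submitters' processing notes, without roles, are RSEM 1.3.1, Bowtie2 and DESeq2 1.4.5, and the build is mm10. The annotation and strandedness are not given in the sources used here, and reads of overlapping genes cannot be told apart. The authors deposited estimated counts per gene, per the file headers, and a second set of columns that the values identify as FPKM: over 404 genes with a single transcript, count over FPKM and library total gave 93.8% to 94.1% of the annotated length (median). The 4 deposited group averages were not used.

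After rounding to integers, counts of the whole table were tested in R 4.3.3 with edgeR 4.0.16 (quasi-likelihood, two-sided, TMM, filterByExpr at 10 counts and 15 in total, Benjamini-Hochberg over 14124 genes, threshold 0.05). Standard errors are the fold change over the square root of F. Alternatives used DESeq2 1.42.0 and limma 3.58.1 (FPKM of at least 1 in 3 samples, 1 or 0.1 added before log2). Of the tests, only the edgeR fit was tried on simulated counts. Ratios were compared by exact permutation over 20 arrangements. Genes were identified by Entrez number, and coordinates come from RefSeq GRCm38.p6.

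Members, lists and tests were chosen with earlier results of these data known. Library values are given for genes with an unadjusted p under 0.05, for the gene with the smallest p and that with the highest FPKM of each role, and for genes of the ratios. Marker and interferon lists are given by sums and counts. Genes named for a library pattern, and library values of Nrp2, Tek, Cldn5, Esm1, Sema3f and Pf4, were chosen after they were seen.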

Additional observations from a re-analysis of the deposited data

How the results depend on the processing

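The count of genes called was 0, in both directions, in edgeR and in all 17 alternatives, each over 40 genes except the stricter filter (39, without Pgf) and the FPKM scales (39, without Prox1): factors by RLE, by upper quartile or none, the count filter dropped or made stricter, a replicate block, DESeq2, limma-voom, limma-trend on 2 FPKM scales, each library left out in turn and, added after the data were seen, both TG replicate 2 and WT replicate 3 left out. The median log2 fold change stayed below 0 in each, from -0.20 without TG replicate 3 to -0.03 without WT replicate 2. Libraries overlapped for every gene tested under the other scalings and filters. With 1 library left out the groups did not overlap for 1 to 9 genes (2.5% to 22.5%, and 15.3% to 19.3% of all genes), and with both libraries left out for 13 (32.5%, and 34.3% of all genes), since fewer libraries leave less overlap. The direction held throughout for 18 of 40 genes and turned at least once for 22, in 55 of 677 values; the cause was not tested. With upper-quartile factors the reversed values were Prox1 0.0026, Vegfa 0.0076. With no composition factors the reversed value was Vegfa 0.0039. With at least 50 counts in 3 samples the reversed value was Vegfb -0.0027. With a replicate block the reversed values were Prox1 0.00088, Vegfb -0.0022. In limma-voom the reversed values were Prox1 0.0059, Vegfb -0.0016. On log2(FPKM + 1) the reversed values were Esam 0.0013, Vegfb -0.0054. On log2(FPKM + 0.1) the reversed values were Esam 0.0015, Vegfb -0.0055. Without both TG replicate 2 and WT replicate 3 the reversed values were Notch1 0.061, Nrp2 0.20, Prox1 0.030, Robo4 0.021, Sox18 0.12, Tie1 0.051, Vegfb -0.023. Leaving out each library in turn gave, for genes that turned, Angpt2 -0.12 to 0.17, Cd34 -0.24 to 0.027, Cdh5 -0.23 to 0.0040, Cldn5 -0.051 to 0.28, Dll4 -0.32 to 0.056, Efnb2 -0.22 to 0.00059, Esam -0.099 to 0.15, Fli1 -0.11 to 0.16, Flt1 -0.30 to 0.018, Kdr -0.28 to 0.026, Notch1 -0.13 to 0.081, Nrp1 -0.12 to 0.027, Nrp2 -0.28 to 0.15, Prox1 -0.15 to 0.12, Robo4 -0.23 to 0.026, Sox17 -0.0013 to 0.34, Sox18 -0.15 to 0.12, Tek -0.27 to 0.031, Tie1 -0.21 to 0.15, Vegfa -0.19 to 0.24, Vegfb -0.14 to 0.11, Vegfc -0.18 to 0.079. Of the ratios, Flt1 over Kdr had a log2 difference of 0.0037 from counts and -0.096 to 0.10 with a library left out, and Vegfa over Kdr -0.15 to 0.47. Replicate numbers are shared by the genotypes without a stated meaning. Deviations of same-numbered libraries correlated at 0.32, 0.12 and 0.09 for numbers 1 to 3, each library correlating best with its own number, and a replicate block called 159 genes in all and 0 of the 40. Pgf rests on 19 to 30 counts per library, which limits its precision.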

Other observations

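Vegfa was low in replicate 1 of both genotypes (98.9 and 117 CPM) and between 175.7 and 195 CPM in the other 4 libraries. With the replicate number as a block its standard error was 0.085 in place of 0.24, and its log2 fold change -0.03. Of 11 other genes known to respond to low oxygen, chosen after the values of Vegfa were seen (Adm, Slc2a1, Bnip3, Ndrg1, Ddit4, Ankrd37, Pdk1, Egln3, Car9, Pgk1 and Ldha), 0 had replicate 1 of TG and WT as the 2 lowest libraries, an arrangement found in 11.9% of all genes tested. These libraries were the 2 highest for 2 of the 11, Adm and Egln3, and for 10.5% of all genes. Ankrd37, at 0.377 to 0.602 CPM, had too few counts to be tested. The 11 genes are too few to tell these counts from the shares of all genes. A part of low oxygen in the values of Vegfa was not tested. What the replicate number stands for is not given in the sources used here.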
